A study of Mus musculus with 17 samples.

Results

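Sperm chromatin that stayed in solution after a standard digestion and a spin was compared with sperm chromatin that was digested and never spun. The comparison uses 5 of the 17 samples of the series, chosen by their labels. The standard library is the supernatant of sperm nuclei digested with micrococcal nuclease (MNase) at 1 unit per 100000000 cells and spun at 5000 g for 5 min. The other 4 libraries are the non-separated fraction of sperm digested with 0.5, 2, 10 or 50 units. For all 5 libraries, C57/B6J mice aged 10 weeks gave sperm from the epididymis (cauda) and the vas deferens. These swam up in medium, were fixed for 15 min in 1% formaldehyde and were digested for 5 min. Neither the animals behind a library nor the sperm in an unspun digest are counted in the labels, so unspun units and the standard dose per cell have no common scale here.

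MNase cuts DNA that protein does not hold, and fragments near the length of DNA wrapped around a nucleosome mark sites where a histone core was present. In maturing sperm most histones are replaced by transition proteins and then by protamines, which pack DNA more tightly, and a minority of the genome keeps nucleosomes. A light digestion frees the most accessible chromatin first, and a spin keeps what has been released in solution and removes what is still held in the pellet. Promoters of housekeeping and developmental genes in mammals often lie in stretches rich in the dinucleotide CG (CpG islands), whereas promoters of many tissue-specific genes, such as the receptors of smell, are poor in CG and rich in A and T.

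Each library was read as the pileup of fragments within 15 bp of 150 bp in length, in bins of 20 bp over 2000 bp to each side of RefSeq start sites, on the mouse genome build mm9. Sums were divided by the pileup of an isolated fragment, 22, to give fragments. Of 24084 distinct start sites, 23431 had signal, and 16476 of these carried the authors' promoter class, with 10567 high-CpG (HCP), 3077 intermediate-CpG (ICP) and 2832 low-CpG (LCP) promoters as those codes are read here. The standard library held 1272531 fragments around them and the unspun libraries 41419, 39165, 31027 and 29492 from the lowest to the highest dose. Within 1000 bp of the start site a gene had on average 22.5 fragments in the standard library and 0.850, 0.840, 0.684 and 0.702 in the unspun libraries. Of 21038 genes, 0.556% had no fragment in the standard library, and 7.84% had none in the 4 unspun libraries together, which held 3.08 per gene. Every group is 1 library, so no test over samples was possible; 1 library against 4 could not give an exact p under 0.2. The 95% intervals are exact binomial intervals that cover counting error only, since reads carried no molecular identifiers. The spin and the depth differ between the standard and the unspun libraries. The enzyme dose per cell and the library preparation may also differ. The parts of these in the results cannot be told apart.

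The preparations differed at the start site itself, by the widest margin in HCP promoters. In the standard library the signal of HCP promoters sank to 0.153 of the flanking level at 130 bp downstream of the start site. The unspun library of 0.5 units had its minimum at the same place, at 0.535 of the flanks. The libraries of 2 and 10 units stayed between 0.893 and 1.16 of the flanks within 1000 bp. The library of 50 units reached 2.00 times the flanks at 190 bp downstream. The standard library showed a gap at the place where the most digested unspun library showed a peak.

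**Figure D1:**
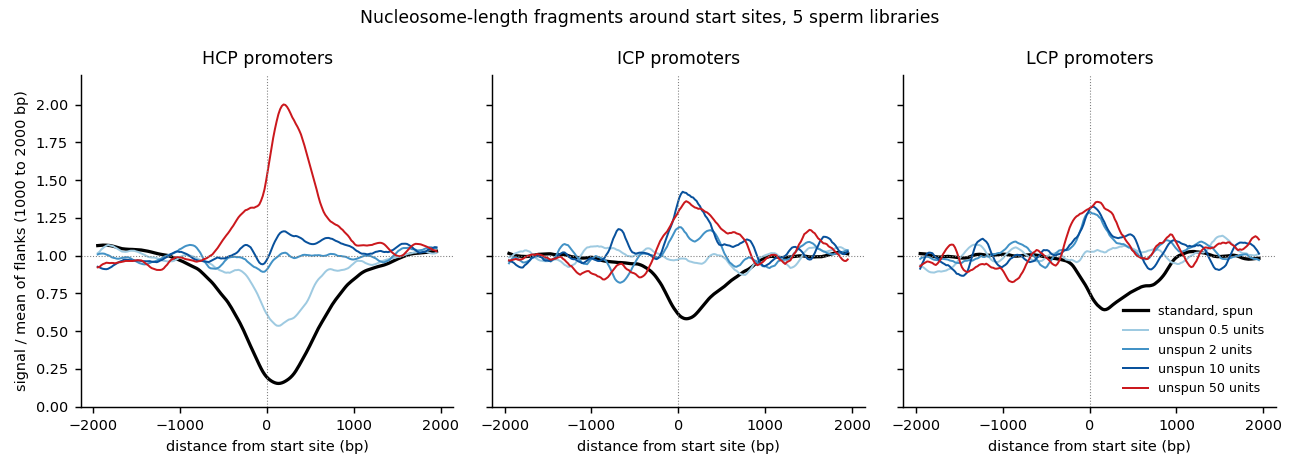
Mean signal of nucleosome-length fragments by distance from the start site in bp, relative to the flanks 1000 to 2000 bp away and smoothed over neighbouring bins, for HCP, ICP and LCP promoters, with 1 line per library. The standard library has a dip in all 3 classes, deepest in HCP promoters at 0.153, while the unspun library of 50 units peaks at 2.00 in HCP promoters.

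The start-site ratio sets the mean signal of a region at the start site against that of the flanks, 1000 to 2000 bp away on both sides. Over the 300 bp downstream of HCP start sites the standard ratio was 0.169 (95% interval 0.165 to 0.172). The unspun ratios were 0.560, 0.988, 1.11 and 1.88 from 0.5 to 50 units. None of these intervals met that of the standard library, and the closest unspun library, 0.5 units (0.522 to 0.600), was 3.32 times as high. Against the 4 unspun libraries together the log2 difference of the ratio was -2.64, and without the 0.5-unit or the 50-unit library it was -2.91 or -2.35. Over the 200 bp upstream the standard ratio was 0.291 and the unspun ratios 0.727, 0.909, 0.979 and 1.36, for a log2 difference of -1.71.

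ICP and LCP promoters differed in the same direction and by less. Downstream of ICP start sites the standard ratio was 0.608 (0.595 to 0.620), and the unspun ratios were 0.962, 1.13, 1.38 and 1.33. Downstream of LCP start sites it was 0.671 (0.658 to 0.684), and the unspun ratios were 1.03, 1.21, 1.23 and 1.32. In the unspun libraries of 2 units and more, ICP and LCP start sites carried more signal than their flanks downstream, whereas the standard library carried less than its flanks in every class. Upstream the standard ratio was 0.704 for ICP promoters, where the unspun libraries gave 0.978 to 1.20, and 0.852 for LCP promoters, where they gave 0.990 to 1.28. The LCP interval of the standard library (0.834 to 0.870) met that of the 0.5-unit library in neither region, although upstream they lay close.

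The 3 classes also took different shares of the fragments. HCP promoters make up 64.1% of the classed start sites and held 49.4% (49.2% to 49.6%) of the classed fragments within 1000 bp in the standard library. They held 59.7%, 64.5%, 65.4% and 69.6% in the unspun libraries of 0.5, 2, 10 and 50 units. LCP promoters make up 17.2% of the start sites and held 26.6% of the standard fragments, against 19.4%, 16.5%, 15.6% and 13.9% in the unspun libraries. ICP promoters, 18.7% of the start sites, held 24.1% in the standard library, 21.0% at 0.5 units and 16.5% at 50 units, with the other two unspun libraries in between. The standard library thus gave more of its fragments to CG-poor promoters than each unspun library did, and the unspun library of 0.5 units came nearest to it in all 3 classes. The log2 ratio of the standard share to the summed unspun share was -0.39 for HCP, 0.34 for ICP and 0.69 for LCP promoters. These sizes depended on the window, since within 200 bp they were -0.93, 0.56 and 1.08.

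**Figure D2:**
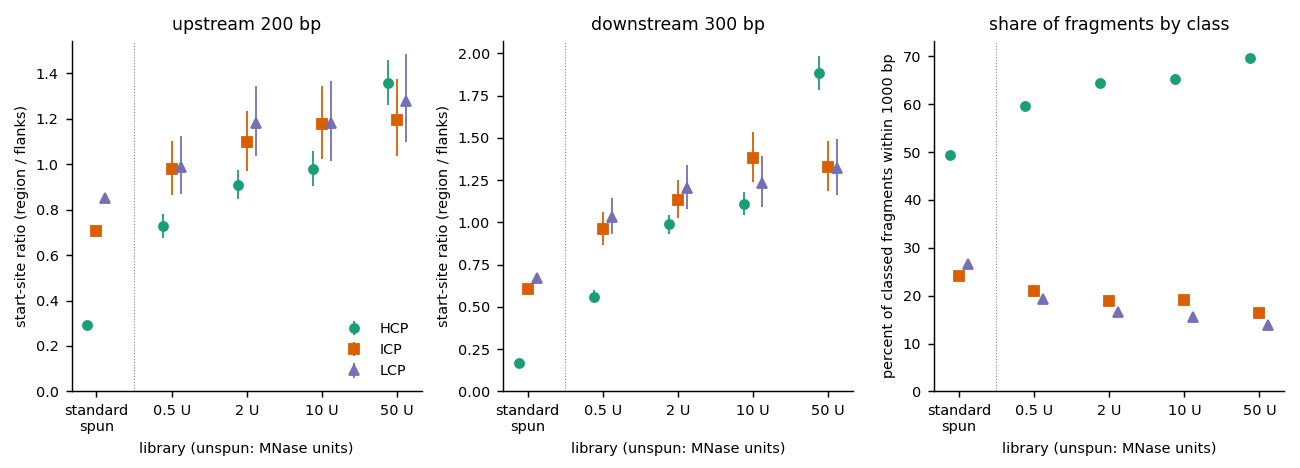
Start-site ratios upstream and downstream of the start site and the percent of classed fragments within 1000 bp, for the standard library and the 4 unspun libraries by MNase units, with a marker per promoter class and exact 95% intervals of counting error. The HCP points of the standard library, at 0.291, 0.169 and 49.4%, are below those of all 4 unspun libraries in each panel.

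The most AT-rich and the most GC-rich promoters stood in opposite order in the standard library and in the unspun libraries of 2 units and more. GC content was taken from the RefSeq promoter sequence, 250 bases before to 50 after the start, for 15683 of 19110 protein-coding genes outside chromosome 18 (82.1%). In the standard library, promoters of at most 35% GC held 1.98 times the fragments of the average gene and those above 70% held 0.558 times. In the unspun libraries of 0.5, 2, 10 and 50 units the promoters of at most 35% GC held 0.779, 0.470, 0.428 and 0.444 times the average. Those above 70% GC held 0.811, 0.987, 0.994 and 1.22 times the average. The standard level fell at every step from the lowest to the highest of the 9 GC classes. The 0.5-unit library was highest between 50% and 55% GC, at 1.14, and low at both ends. The 2-unit library was highest between 60% and 65% GC, at 1.18, and the 10-unit library between 55% and 60%, at 1.16. The 50-unit library was highest between 65% and 70% GC, at 1.23.

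As a ratio of shares, standard to summed unspun, promoters of at most 35% GC gave a log2 value of 1.88 (1.79 to 1.96), and 98.3% of their 664 genes were higher in the standard library. Promoters above 70% GC gave -0.83 (-0.88 to -0.79), and 27.1% of their 1722 genes were higher. Among all 21038 genes the share was higher in the standard library for 10356 (49.2%) and lower for 10575 (50.3%), with a median log2 ratio of -0.01. Within a range of GC content the gap between HCP and LCP promoters was not constant. Between 45% and 55% GC the log2 ratio was -0.07 (-0.12 to -0.02) in 1317 HCP genes and 0.17 (0.11 to 0.23) in 765 LCP genes. At or below 45% GC it was 0.15 in 141 HCP genes and 1.53 in 997 LCP genes. Between 55% and 65% GC it was -0.42 (-0.45 to -0.39) in HCP and -0.57 (-0.65 to -0.49) in LCP genes, and above 65% GC it was -0.76 (-0.79 to -0.72) in 2884 HCP and -0.15 (-0.36 to 0.07) in 65 LCP genes. The classes were thus closer from 45% to 65% GC than at both ends. GC content was not matched more finely at or below 45%, where the ratio over all classes fell from 1.88 to 0.98 between 40% and 45% GC. The LCP class also includes 649 of the 1100 olfactory receptors, a list with a median of 35% GC. The gap there is thus not one at equal GC content. This comparison was not computed for ICP promoters, because 79.6% of their coding genes had a sequence, under the 80% set as the minimum for such a check.

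**Figure D3:**
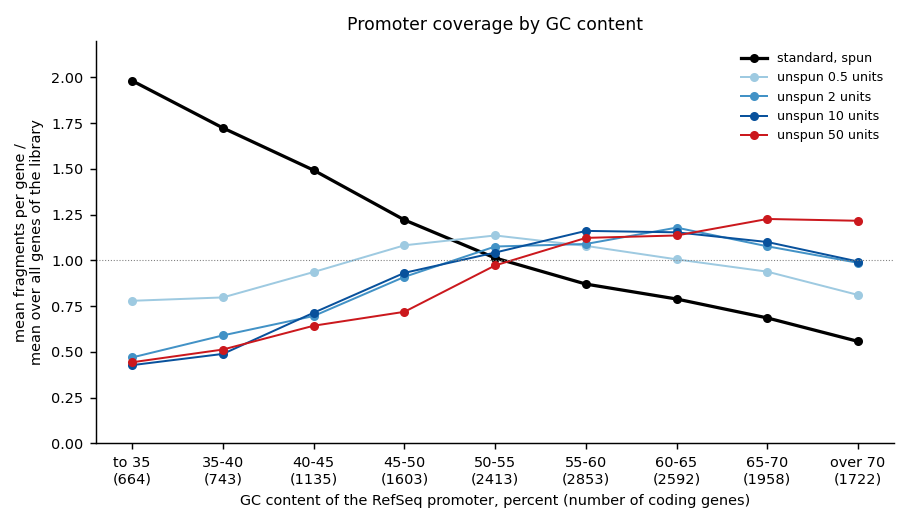
Mean fragments per gene within 1000 bp of the start site, relative to the average gene of the same library, by GC content of the RefSeq promoter in percent, with 1 line per library and the number of coding genes under each class. The standard line runs from 1.98 at the AT-rich end to 0.558 at the GC-rich end, and the 50-unit line from 0.444 to 1.22.

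The receptors of smell and taste held a larger share of the standard library than of any unspun library. Olfactory receptors, the odorant sensors of the nose, are encoded by clusters of many similar genes and are silent in most other cells. Their 1100 genes held 1.83 times the fragments of the average gene in the standard library, and 0.854, 0.553, 0.532 and 0.561 times in the unspun libraries of 0.5, 2, 10 and 50 units. The log2 ratio to the summed unspun libraries was 1.53 (1.47 to 1.60), and 1016 of 1100 genes were higher in the standard library, where 49.2% of all genes were. Against each unspun library at once, 702 of the 1100 genes were higher in the standard library and 5 lower, where 4063 of all genes (19.3%) were higher and 1504 (7.15%) lower. A count of 0 in an unspun library places a gene with standard fragments higher there, so the shallow unspun depth favours the higher count.

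Vomeronasal receptors, which sense pheromones, showed a larger ratio. Their 259 genes stood at 1.42 times the average gene in the standard library and at 0.407, 0.296, 0.303 and 0.161 times in the unspun libraries. The log2 ratio was 2.26 (2.07 to 2.45), with 243 of 259 genes higher in the standard library, and 117 of the 259 had no fragment in any unspun library. Taste and trace amine receptors, 53 genes, stood at 2.11 times the average in the standard library and at 0.909, 0.652, 0.634 and 0.594 in the unspun libraries, a log2 ratio of 1.58 (1.31 to 1.86) with 51 of 53 genes higher. Within 200 bp of the start site the ratios of the 3 lists were 2.19, 2.76 and 2.28.

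These receptor promoters are among the AT-rich ones, and they were compared with other genes of like GC content. Among receptor genes of at most 45% GC the log2 ratio was 1.73 (1.66 to 1.79) over 1121 genes, and among all other coding genes of at most 45% GC it was 1.11 (1.05 to 1.16) over 1413 genes, with no finer match of GC content within that range. Between 45% and 55% GC the ratio was 0.27 (0.07 to 0.47) in 80 receptor genes and 0.12 (0.10 to 0.15) in 3904 other genes. LCP promoters that are not olfactory receptors, 2038 genes, had a log2 ratio of 0.34. Genes of 1 receptor family resemble each other in sequence, and the sources used here do not say how reads that map to several places were treated, so values of single receptor genes are uncertain. The dip at the start site of olfactory receptors was shallow upstream and deeper downstream in the standard library, at ratios of 0.917 and 0.513, against 0.956 and 0.940 in the summed unspun libraries. The downstream ratio was below that of the LCP class as a whole (0.671).

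Some other clustered families were also higher in the standard library, whereas keratins and Hox clusters, given below, were lower within 1000 bp. Keratin-associated proteins, which build hair, gave a log2 ratio of 1.15 (0.88 to 1.43) with 46 of 52 genes higher. Defensins, antimicrobial peptides that include several made in the epididymis, gave 1.02 (0.72 to 1.34) with 42 of 55 higher. Among members with a class LCP is the most frequent, but 23 of the 52 and 26 of the 55 genes have none. The other LCP genes, which include olfactory receptors, gave 0.64. LCP genes that are not olfactory receptors gave 0.34. Globins gave 1.17 (0.50 to 1.93) with 10 of 11 higher, from only 19 unspun fragments, and against the 50-unit library alone their value was 0.11. MicroRNA genes, which carry no promoter class, gave 0.36 (0.28 to 0.43) with 328 of 548 higher, and the other 4945 genes without a class gave 0.15.

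Clustered protocadherins and histone genes were higher in the standard library although most have HCP promoters. Other lists of mainly HCP genes also lay above that class, as given below with the housekeeping genes. Clustered protocadherins, cell adhesion proteins of neurons whose 57 genes include 43 with HCP promoters, stood at 1.60 times the average gene in the standard library and at 1.02, 0.93, 0.936 and 0.645 in the unspun libraries. Their log2 ratio was 0.84 (0.60 to 1.08), with 43 of 57 genes higher, while the other 9966 genes with HCP promoters gave -0.45. Replication-dependent histones, made in S phase to package new DNA, gave 0.64 (0.38 to 0.91), with 49 of 64 genes higher and 37 of the 64 in the HCP class. Their standard level was 1.03 times the average gene and their unspun levels 0.655, 0.519, 0.862 and 0.636. The 59 histone genes with a promoter sequence had a median of 45.3% GC. HCP genes as a class gave 0.15 at or below 45% GC and -0.07 between 45% and 55% GC. The histone genes had a deep gap downstream of the start site in the standard library, at 0.144 (0.106 to 0.191) of the flanks. That interval held the value of HCP promoters as a class, 0.169. The unspun libraries together had 0.438 (0.191 to 0.873) at histone genes, from 8 fragments, against 1.05 at HCP promoters.

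Developmental genes lay on the other side. Developmental regulators outside the Hox clusters, transcription factors that set cell fate, held 0.579 times the fragments of the average gene in the standard library and 0.868, 1.13, 1.21 and 1.40 times in the unspun libraries of 0.5, 2, 10 and 50 units. The log2 ratio was -0.97 (-1.11 to -0.83), and 128 of 158 genes were lower in the standard library, where 50.3% of all genes were. Ligands of the Wnt, Bmp, Fgf and hedgehog families, secreted signals of the embryo, gave -0.96 (-1.19 to -0.73) with 47 of 55 lower. Imprinted genes, expressed from the copy of 1 parent, gave -0.60 (-0.85 to -0.35) with 27 of 37 lower. The other genes with HCP promoters, the class to which most members of these lists belong, gave -0.44. The intervals of regulators and ligands lay below that value, and the interval of imprinted genes held it. The place of these lists beside the class depended on the window. Within 200 bp the other HCP genes were at -1.03, below the developmental regulators at -0.58 (-0.94 to -0.20). The intervals of imprinted genes, -0.59 (-1.13 to -0.02), and of ligands, -1.26 (-1.82 to -0.68), held the value of the class there. Within 2000 bp regulators and ligands were below the other HCP genes, at -0.80 and -0.74 against -0.25 and -0.26. Imprinted genes were at -0.54 (-0.72 to -0.36) there, against -0.26. A comparison at equal GC content was not made, since 67.1% of the 252 Hox, regulator and ligand genes had a promoter sequence, under the minimum of 80%.

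Hox genes, which set identity along the body axis, depended on the window. Within 1000 bp their log2 ratio was -0.88 (-1.16 to -0.60), with 28 of 39 genes lower, and the 4 unspun libraries gave -0.65, -0.40, -1.42 and -0.996 in order of dose. Within 200 bp it was 0.0043 (-0.63 to 0.69), where the other HCP genes were at -1.04. Their start sites had a shallower gap in the standard library than those of the other developmental regulators, at 0.732 (0.554 to 0.952) of the flanks upstream and 0.586 (0.455 to 0.746) downstream, against 0.379 and 0.297.

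**Figure D4:**
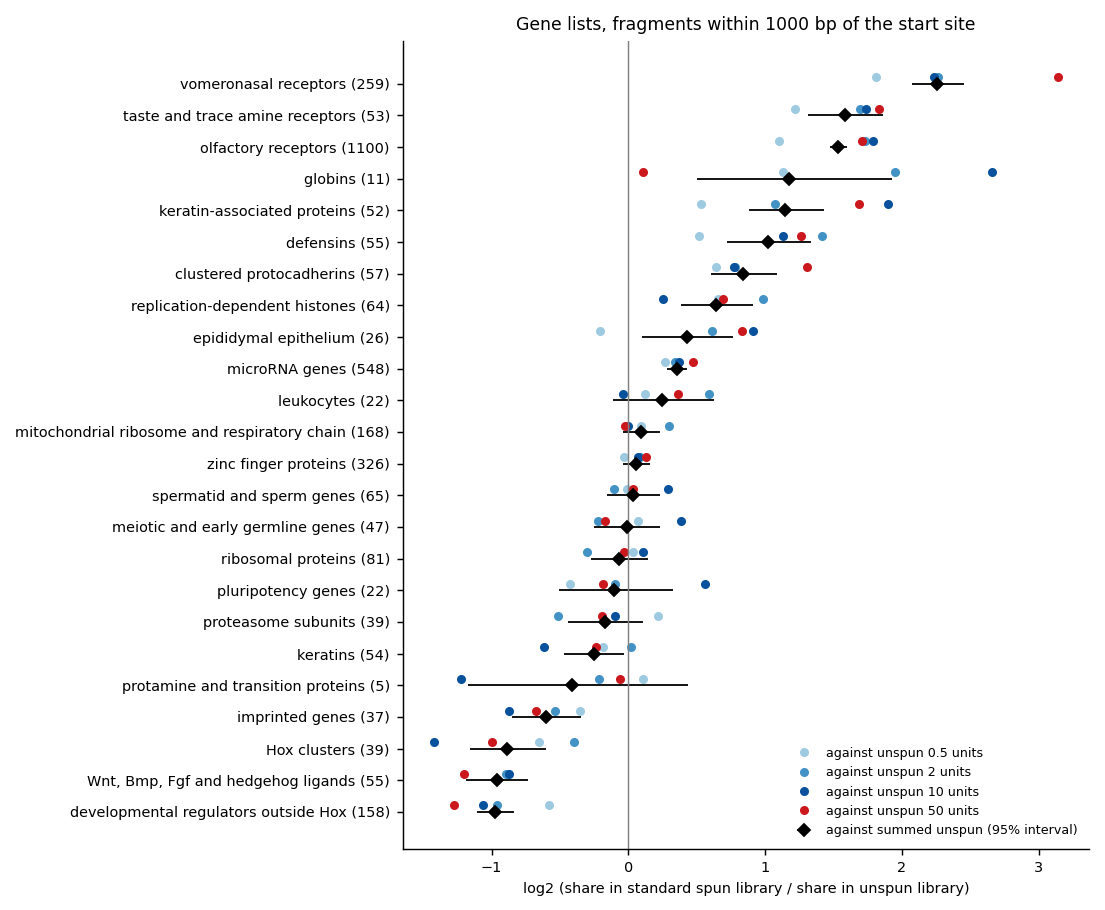
The log2 ratio of the share of each gene list in the standard library to its share in the unspun libraries, from fragments within 1000 bp of the start site, with the number of genes in brackets. Diamonds with bars are the ratios to the 4 unspun libraries summed with exact 95% intervals, and circles are the ratios to each unspun dose. Vomeronasal receptors are at 2.26 and developmental regulators at -0.97.

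For housekeeping and germ-cell lists the interval of the ratio held 0. Ribosomal proteins gave a log2 ratio of -0.07 (-0.27 to 0.15), proteasome subunits -0.17 (-0.44 to 0.11), genes of the mitochondrial ribosome and respiratory chain 0.10 (-0.04 to 0.23), and zinc finger proteins 0.06 (-0.04 to 0.16). Spermatid and sperm genes, active during the last steps of sperm formation, gave 0.03 (-0.16 to 0.23) with 34 of 65 higher. Meiotic and early germline genes gave -0.01 (-0.25 to 0.23) with 26 of 47 higher. The 5 protamine and transition protein genes gave -0.41 (-1.17 to 0.43) from 17 unspun fragments, and 22 pluripotency genes gave -0.10 (-0.51 to 0.32). These values held for a window of 1000 bp, and within 200 bp ribosomal proteins were at -0.49, zinc finger proteins at -0.41 and meiotic genes at -0.99. Most ribosomal, proteasome, mitochondrial, zinc finger and meiotic genes have HCP promoters. The other HCP genes gave -0.45 within 1000 bp, below the intervals of these lists, if barely for proteasome subunits. Within 200 bp the other HCP genes were at -1.03, below the intervals of ribosomal (-0.97 to 0.01) and zinc finger (-0.64 to -0.17) genes. The interval of meiotic genes (-1.51 to -0.46) held that value.

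Keratins gave -0.25 (-0.47 to -0.03), with 30 of 54 lower. Lists named for the other cells that a sperm preparation could hold describe DNA coverage and no cell type, because every cell carries these promoters. Genes of the epididymal epithelium gave 0.43 (0.10 to 0.77) over 26 genes, and -0.21 against the 0.5-unit library alone. Leukocyte genes gave 0.25 (-0.11 to 0.62) over 22 genes, with 11 higher and 11 lower.

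Over all 24 lists, 10 had an interval above 0 and 5 below 0, and 9 held 0. The standard value lay above the range of the 4 unspun libraries for 9 lists, below it for 4 and within it for 11. All 9 class measures, the 2 start-site ratios and the share of each class, lay outside the range of the unspun libraries, 7 below and 2 above, and the unspun library of 0.5 units was the nearest in all 9. Of the 13 lists outside the range, the 0.5-unit library was also the nearest for 9. Ranks of single genes showed little likeness between the preparations: Spearman's rho across 21038 genes was 0.11, -0.02, -0.06 and -0.09 between the standard library and the unspun libraries in order of dose, and 0.05 to 0.12 between unspun libraries, in each of which 41.0% to 49.3% of genes had no fragment.

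Single genes could be judged only where the unspun libraries were deep enough. The set minimum was a mean over both preparations of at least 10 fragments at the summed unspun depth. It was met by 7 genes. Of these, 2 were past 2-fold higher and 1 past 2-fold lower in the standard library, and 3 differed in the same direction from all 4 unspun libraries. A gene could pass this minimum through the preparation in which it was high. Trpm8 and Hjurp passed mainly through the standard library, and Hsd3b7 mainly through the unspun libraries. The counts and the ratios of these genes are therefore a description and add no support. Trpm8, the cold and menthol channel of sensory nerves, held 150 fragments in the standard library and 0, 1, 0 and 0 in the unspun libraries (start site at 90203286 on chromosome 1, mm9), a ratio of shares of 20.6 (3.63 to 817). Hjurp, a chaperone that loads the centromeric histone, starts nearby at 90174154 and held 122 fragments in the standard library and 1, 2.32, 0 and 1 in the unspun libraries, a ratio of 3.86 (1.52 to 13.5). Both lie in a stretch with high standard signal that also holds the start site of the bilirubin-conjugating enzyme Ugt1a1, at 116 against 3.73 summed unspun fragments, while Ugt1a2 and Dnajb3 in the same stretch held 18.2 and 28.1 against 1.95 and 4.86. Hsd3b7, a steroid dehydrogenase of bile acid synthesis (start site at 134944122 on chromosome 7, mm9), held 16.1 fragments in the standard library and 4, 8.64, 4.95 and 1.95 in the unspun libraries. Its share was 8.86 times higher in the unspun libraries (4.35 to 18.3).

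Sfi1, which encodes a centrin-binding protein of the centrosome and carries the highest signal of these 7 genes, had an interval that held an equal share. It held 852 fragments in the standard library and 23.8, 31.6, 27.8 and 22.2 in the unspun libraries, a ratio of 1.11 (0.902 to 1.37). The transcript NR_030494, for which no symbol was matched, went the other way and followed the dose. Its start site (39981080 on chromosome 17, mm9) held 209 fragments in the standard library and 43.1, 76.6, 93.6 and 147 at 0.5, 2, 10 and 50 units, so its share was 12.6 times higher in the unspun libraries. It and the stretch on chromosome 1 were chosen after their values were seen, and the part of multiply mapping reads in their signal was not tested.

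At a minimum of 5 fragments, 1805 genes could be judged. Of these, 412 (22.8%) were past 2-fold higher in the standard library and 336 (18.6%) past 2-fold lower. Among the 263 olfactory receptors deep enough, 118 were past 2-fold higher and 2 past 2-fold lower, and the 30 vomeronasal receptors gave 25 and 0. The HCP class gave 4 higher and 144 lower of 317 genes, and the LCP class 206 higher and 50 lower of 577. A gene could pass the minimum through the library in which it was high, so these counts describe the genes judged and no wider set.

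The ends of that ranking are shown by 10 genes each, which were picked for their values and are given as a description. The 10 highest held 74.3 to 91.4 fragments in the standard library and 0 in all 4 unspun libraries, where the standard share predicts 10.2 to 12.5. Against the limit of 3 fragments over the summed unspun libraries that a count of 0 allows, their shares were at least 3.38 to 4.16-fold higher with the standard count taken as exact, and the exact 95% intervals, which take the counting error of both, had lower limits of 2.68 to 3.32. They were Skint9 and Skint3, members of an immunoglobulin-like family of skin and thymus; the olfactory receptors Olfr1099, Olfr788, Olfr1006, Olfr1079 and Olfr1241; Pdc, which encodes phosducin of photoreceptor cells; and the small nucleolar and Cajal body RNAs Snord64 and Scarna3a. Of the 10, 7 are LCP promoters and none is an HCP promoter. The 8 with a promoter sequence were 22% to 39.7% GC. All 10 passed the minimum through the standard library alone, in which AT-rich promoters held more fragments. Their class and GC content therefore describe the selection and add no support.

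The 10 lowest were Neto1, Hsd3b7, Glrx5, Mir328, Adgrb1, Csnk1g2, Gdi2, Cerk, Eva1c and Alg5. Neto1, an accessory protein of glutamate receptors, held 3.55 fragments in the standard library and 3.64, 2.41, 1 and 3.14 in the unspun libraries, a share 21.0 times higher in the unspun libraries (5.82 to 101). Glrx5, a mitochondrial glutaredoxin of iron-sulfur cluster assembly, held 5.73 against 2, 4.91, 1 and 2, a share 12.7 times higher (4.10 to 43.6). Gdi2, which recycles Rab proteins, held 10.2 against 3, 2.09, 4.91 and 2, a share 8.58 times higher (3.41 to 22). These sizes depended on the window and on single libraries. On the log2 scale with a pseudocount of 1 unspun fragment, a window of 2000 bp took Neto1 from -2.91 to -1.62, Glrx5 from -2.61 to -1.85, Gdi2 from -2.44 to -1.42, Alg5 from -2.41 to -1.46 and Eva1c from -2.41 to -1.75. Glrx5 was at -1.93 without the 2-unit library, and Neto1 at -2.48 without the 0.5-unit library and at -2.29 with a pseudocount of 2. All stayed lower in the standard library under these settings. Of the 10, 7 are HCP promoters and none is an LCP promoter. The 7 with a promoter sequence were 57.7% to 76.0% GC. All 10 passed the minimum mainly through the unspun libraries, so class and GC content are a description here too.

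**Figure D5:**
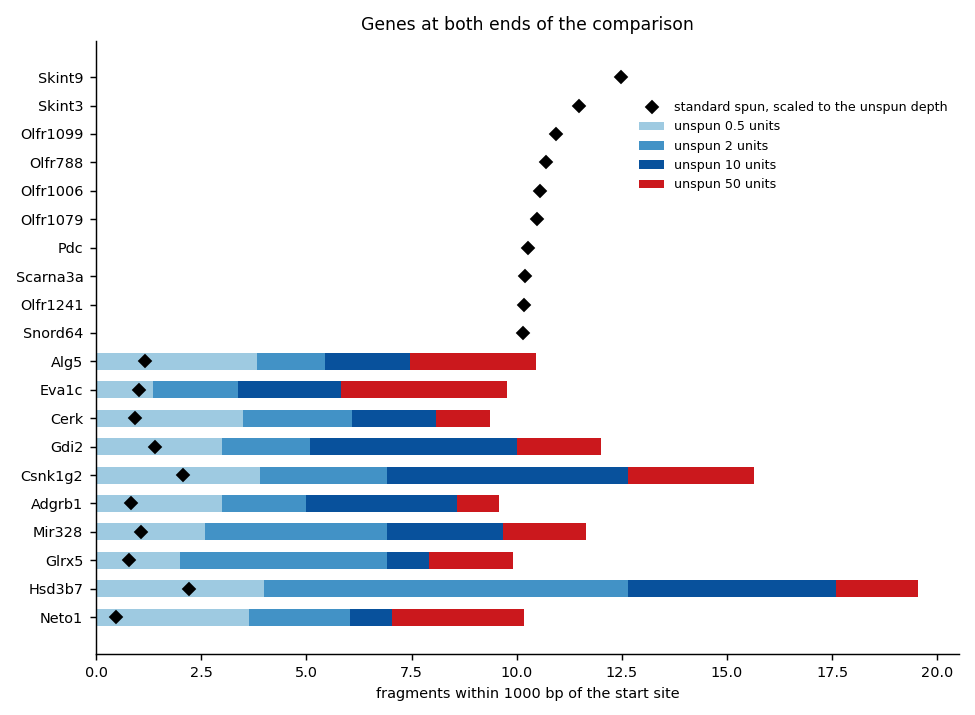
Fragments within 1000 bp of the start site for the 10 highest and 10 lowest genes at a minimum of 5 fragments, with stacked bars for the 4 unspun libraries and a diamond for the standard library scaled to the summed unspun depth. The 10 genes at the top have no bar, and their diamonds are at 10.2 to 12.5; Hsd3b7 has the longest bar, 19.5 fragments.

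The promoters of the first genes at each end that have a RefSeq entry are printed as a description of genes picked for their values. They run from 250 bases before the start to 50 after it, 5′ to 3′, in the build GRCm38.p6, with the dinucleotide CG in capitals; CG reads the same on both strands, and 95.6% of the 15683 coding genes with a sequence hold it. The first pair is from the genes highest in the standard library.
Skint9, chr4:112433936-112434235, minus strand: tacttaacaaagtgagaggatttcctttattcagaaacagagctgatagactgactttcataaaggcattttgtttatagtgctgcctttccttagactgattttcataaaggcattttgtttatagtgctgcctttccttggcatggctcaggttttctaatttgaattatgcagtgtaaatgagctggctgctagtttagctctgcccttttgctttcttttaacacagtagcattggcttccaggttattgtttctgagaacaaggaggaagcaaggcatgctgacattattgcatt
Skint3, chr4:112231995-112232294, plus strand: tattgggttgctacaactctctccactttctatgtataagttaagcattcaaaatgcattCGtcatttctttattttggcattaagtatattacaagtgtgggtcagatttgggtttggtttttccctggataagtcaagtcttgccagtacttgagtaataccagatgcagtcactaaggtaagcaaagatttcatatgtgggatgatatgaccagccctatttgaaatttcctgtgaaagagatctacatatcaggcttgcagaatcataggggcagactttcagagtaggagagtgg
The second pair is from the genes highest in the unspun libraries.
Hsd3b7, chr7:127800359-127800658, plus strand: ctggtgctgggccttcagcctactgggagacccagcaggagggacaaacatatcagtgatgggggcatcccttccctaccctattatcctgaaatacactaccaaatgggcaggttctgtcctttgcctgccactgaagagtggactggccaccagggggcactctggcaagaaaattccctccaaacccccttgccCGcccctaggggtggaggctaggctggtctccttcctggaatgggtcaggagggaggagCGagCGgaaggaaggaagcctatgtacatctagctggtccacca
Glrx5, chr12:105032368-105032667, plus strand: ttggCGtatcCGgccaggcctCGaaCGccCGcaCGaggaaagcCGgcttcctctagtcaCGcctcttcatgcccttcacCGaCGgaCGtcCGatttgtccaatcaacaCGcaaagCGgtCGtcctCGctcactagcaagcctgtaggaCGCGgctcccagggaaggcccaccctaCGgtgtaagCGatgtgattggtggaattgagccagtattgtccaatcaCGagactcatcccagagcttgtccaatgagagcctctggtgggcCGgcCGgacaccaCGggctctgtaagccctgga
Skint9 and Skint3 have 0 and 1 CG at 38.3% and 38.7% GC, and Hsd3b7 and Glrx5 have 3 and 24 CG at 57.7% and 60% GC. Hsd3b7 stood at the unspun end with few CG.

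Outside these ends most single genes could not be separated at this depth. The gene with the highest mean share of each of the 24 lists held 1.86 to 10.3 summed unspun fragments. Its interval of the ratio lay above 1 for 3, below 1 for 6 and held 1 for 15. The mean share takes in both preparations, so a gene could be picked through the one in which it was high. These counts and ratios are therefore a description and add no support. Defb41, a defensin of the epididymis, had the highest of these ratios, with 78.8 standard fragments against 1.86, 0, 0 and 0. Its ratio of shares was 5.78 (1.49 to 54.4), and all of its unspun signal came from the 0.5-unit library: on the log2 scale with the pseudocount it moved from 2.04 to 3.14 without that library. Bmp2, a signal of bone and heart formation, held 15.3 against 2.95, 1, 1 and 3.95, a share 4.27 times higher in the unspun libraries (1.64 to 10.4). Prm1, the first protamine, held 14.7 against 2, 2, 2 and 1, a share 3.48 times higher in the unspun libraries (1.20 to 9.10), whereas Prm2 held 23.6 against 0, 1, 0.545 and 0, a ratio of 2.09 in the standard direction with an interval of 0.447 to 28.7. Of 14 genes of general interest with a start site in the tables, 13 had an interval that held 1, among them Tnp1, Pou5f1, Nanog, Actb, Gapdh, Sox2 and Snrpn, and the exception was Prm1.

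Chromosomes differed as well. The X chromosome held 2.66% of the standard fragments within 1000 bp of genes and 2.06%, 2.09%, 1.65% and 1.24% of the unspun fragments at 0.5, 2, 10 and 50 units, a log2 ratio of 0.57 (0.49 to 0.66). Chromosome 15 lay at the other side, with 3.13% in the standard library and 3.90%, 4.40%, 4.21% and 4.08% in the unspun libraries, a log2 ratio of -0.40 (-0.46 to -0.34). The median promoter GC content was 53.7% on the X chromosome and 60% on chromosome 15, and its part in these shares was not tested.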

How the data were processed

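The deposited tables hold, for each start site in mm9, a signal per 20 bp bin: the pileup of fragments in whole numbers, with no scaling to depth. The submitters' processing notes name Bowtie and SAMtools 0.1.16. Size selection, duplicates, multiply mapping reads and the source of start sites: not given in the sources used here. Repeated start sites were taken once, and rows, found to be turned by strand, were used as deposited. Where start sites lie close, a fragment counts at each. For each of 21038 genes the start site with the highest mean share was used, matched by RefSeq accession to symbols of GRCm38.p6 (27264 of 28015 rows matched). The log2 ratio of single genes has a pseudocount of 1 fragment in the unspun sum, scaled by depth in the standard; pooled ratios have none. Scripts were tested on simulated data (Python 3.11.15, numpy 2.4.6, scipy 1.17.1, pandas 2.3.3).

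Genes named are the 10 highest and 10 lowest log2 ratios with 1 sign against all 4 doses, the gene of highest mean share in each list, and a panel of 15 genes, of which 14 had a row with signal. The set minimum of 10 fragments left 7 genes, so both ends come from the listed alternative of 5. Members and lists were chosen with earlier results of these data known. The restriction to protein-coding genes outside chromosome 18 for base composition was added after the data were seen, as over all genes fewer than 80% had a sequence.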

Additional observations from a re-analysis of the deposited data

How the results depend on the processing

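No paired analysis was possible because each group holds 1 library. Of 764 values recomputed under the listed alternatives, 693 moved by less than their counting interval (counts of genes by at most 1.5 times), 70 moved by more, and 1 whose interval left out 0 changed sign. Single genes, whose intervals are wide, made up 448 of the 693, and those with 0 unspun fragments had no upper limit to pass. More than the interval was moved by 5 of 42 start-site ratios, 12 of 24 class shares and 29 of 216 gene-list values. Counts of genes past 2-fold moved by more than 1.5 times in 16 of 22 settings. Where the interval held 0, another 9 values of gene lists and 19 of single genes changed sign. All 42 start-site ratios kept their direction with other flanks, with repeated start sites kept, without the 1% of promoters of highest share, and without any 1 unspun library. Leaving out 1 unspun library at a time gave log2 ranges of -1.85 to -1.56 and -2.91 to -2.35 for HCP upstream and downstream, -1.06 to -0.87 for ICP downstream, -0.43 to -0.35, 0.29 to 0.40 and 0.62 to 0.79 for the HCP, ICP and LCP shares, 1.47 to 1.74 for olfactory and 2.07 to 2.48 for vomeronasal receptors, 0.99 to 1.47 for keratin-associated proteins and 0.31 to 0.77 for epididymal genes. A window of 2000 bp gave HCP, ICP and LCP shares of -0.22, 0.18 and 0.50, olfactory, vomeronasal and taste receptors 1.40, 1.75 and 1.12, protocadherins 0.59, developmental regulators -0.80, keratins -0.53, microRNA genes 0.16 and leukocyte genes -0.13. A window of 200 bp gave -0.93, 0.56 and 1.08 for the classes, 2.19, 2.76 and 2.28 for the receptors, and 1.09 for histones. In that window Hox clusters were at 0.0043, a change of sign, developmental regulators at -0.58 and ligands at -1.26, ribosomal proteins at -0.49, mitochondrial genes at -0.090, zinc finger proteins at -0.41, meiotic genes at -0.99, defensins at 2.17, globins at 0.50, microRNA genes at 0.56 and leukocyte genes at 0.90; the cause was not tested. A window of 2000 bp took Sfi1 from 0.14 to 0.47. Without the 1% of promoters of highest share, olfactory receptors were at 1.60. Genes past 2-fold higher and lower were 2 and 1 at a minimum of 10 fragments, 412 and 336 at 5, 0 and 0 at 20, 3771 and 3240 with no minimum, and 93 and 79 with a window of 2000 bp; without any 1 unspun library they were 0 and 0, since fewer genes then reach the minimum. The depth of the unspun libraries limits all values of single genes.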
